A study of Mus musculus with 7 samples.

Results

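The chains through which blood progenitors sense the myeloid growth factors were examined as a group of 8 genes: Csf2rb and Csf2rb2, which encode the beta common chain and its IL-3-specific copy, the alpha chains Csf2ra, Il3ra and Il5ra, the single-chain receptors Csf3r and Csf1r, and Il1rl1. They were taken from a list of named receptors, and all 8 were found among the 34932 genes quantified. The list was described as receptors for IL-3, GM-CSF, IL-5, G-CSF and M-CSF, but Il1rl1 binds another cytokine, IL-33, and is kept here as a listed member. The list names genes and uses no measured value, but it was drawn up with earlier results of these data known.

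RNA was sequenced from 7 bulk libraries of mouse LT-HSCs, long-term haematopoietic stem cells, from which all lineages of the blood can be regrown after transplantation. The cells were flushed from tibia and femur and sorted as lineage-negative, Sca-1+, cKit+, CD150+, CD48-. Per the labels, 4 libraries are B4galt1 knockout (KO; genotype B4-/- on 129S1/C57Bl/6, called a full knockout) and 3 are wild type (WT; 129S1/C57Bl/6), called KO1 to KO4 and WT1 to WT3 here by replicate number. The product of B4galt1 is a Golgi enzyme that places galactose on the sugar chains of glycoproteins. The labels give no treatment, no age and no sex, and do not say whether each library came from its own mouse, whether mice were pooled, or whether the WT mice were littermates; if libraries of 1 group share a mouse, the p-values measure technical spread alone.

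Receptors of the beta common family work in pairs. An alpha chain (Il3ra, Csf2ra or Il5ra) binds its own cytokine with low affinity, and a shared beta chain joins it to form the signalling complex, which activates JAK2 and STAT5. Mice, unlike humans, carry a neighbouring copy of the beta chain gene, Csf2rb2, whose product serves the IL-3 receptor alone. G-CSF acts through a homodimer of the Csf3r product, M-CSF and IL-34 act through the tyrosine kinase encoded by Csf1r, and IL-33 acts through Il1rl1 with the accessory chain Il1rap. These receptors are best known from committed granulocyte, macrophage, mast cell, basophil and eosinophil precursors.

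Csf2rb and Csf2rb2 lie next to each other on chromosome 15 (GRCm38, the build named mm10 in the submitters' processing notes), at chr15:78325752-78353847 on the plus strand and chr15:78282507-78305721 on the minus strand. Their sequences are shown because they decide how far reads can be assigned to one copy. The coding sequences of the full-length forms of Csf2rb (2688 bases) and Csf2rb2 (2634 bases) were identical at 92.88% of aligned positions, with 122 mismatched bases, 70 gap positions and a longest identical run of 242 bases. Of all 31-base words in the Csf2rb coding sequence, 39.62% were also found in the Csf2rb2 coding sequence. The 90-base coding window with the most mismatches lies in exon 4 of both genes (chr15:78338897-78338986, plus strand, and chr15:78294345-78294434, minus strand). It holds 16 mismatches, printed in capitals:
Csf2rb: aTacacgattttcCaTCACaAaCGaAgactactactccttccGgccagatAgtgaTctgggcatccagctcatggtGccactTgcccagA
Csf2rb2: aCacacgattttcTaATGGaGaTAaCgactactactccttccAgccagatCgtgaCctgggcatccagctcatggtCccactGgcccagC
A second 90-base window, which spans exons 6 and 7 of each gene (within chr15:78340783-78341361, plus strand, and chr15:78291948-78292526, minus strand), has 0 mismatches, so a read inside it cannot be told apart between the copies:
both genes: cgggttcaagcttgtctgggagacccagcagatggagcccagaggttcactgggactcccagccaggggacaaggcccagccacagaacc
Salmon, which made the deposited estimates, divides such reads between the copies by what the rest of each transcript shows. The level of each copy alone is therefore less certain than their sum, and both are given.

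The libraries held 23508985 to 34941390 estimated reads. Genes were tested between KO and WT with edgeR's quasi-likelihood test and Benjamini-Hochberg adjustment over the 14695 genes that passed the filter on low counts, and all 8 receptor chains passed it. The RNA of B4galt1 itself did not separate the groups: it lay at 14.6 to 19.3 CPM (reads scaled to the size of the library) in KO and 11.3 to 24.4 CPM in WT, with a log2 difference of -0.20 (SE 0.27, edgeR adjusted p = 0.758), so the labels could not be checked by it. The sources used here do not say which part of the gene is deleted. The summed CPM of Kdm5d, Uty, Ddx3y and Eif2s3y, all on the Y chromosome, was 256 to 365 in 5 libraries and 10.9 and 6.04 in KO4 and WT3, so both groups mix libraries with and without Y-linked expression. The LT-HSC markers were present in every library, with a summed level over 14 genes of 1446 to 1736 CPM in KO and 1810 to 2085 CPM in WT. A bulk library cannot tell fewer cells of a type from less RNA per cell.

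Csf2rb was the 1 receptor chain of 8 that rose in the KO libraries, by 3.48-fold, and 0 of the 8 fell in edgeR, also with no adjustment of p. Across all genes tested, 0.599% rose and 1.66% fell. DESeq2 and limma voom also called Csf2rb, and it alone of the 8, as higher, where 2.40% and 1.83% of all genes were. Each of the 8 estimated differences was above 0, as were 52.7% of all genes tested. Their median log2 difference was 0.83, against 0.03 over all genes tested, with a lowest value of 0.31 for Csf2ra and a highest of 1.80 for Csf2rb. This count and median are not evidence of a shift of the whole group. Il5ra, at most 0.328 CPM in WT, met the filter on low counts only through KO libraries. Csf1r turned to -0.17 with Y-linked expression in the fit, and Csf2rb and Csf2rb2 share reads. Before adjustment 3 chains were higher at p below 0.05 (Csf2rb, Csf3r and Csf2rb2), against 7.42% of all genes. In 2 chains, Csf2rb and Il3ra, every KO library lay above every WT library, a pattern shown by 8.23% of all genes tested.

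**Figure D1:**
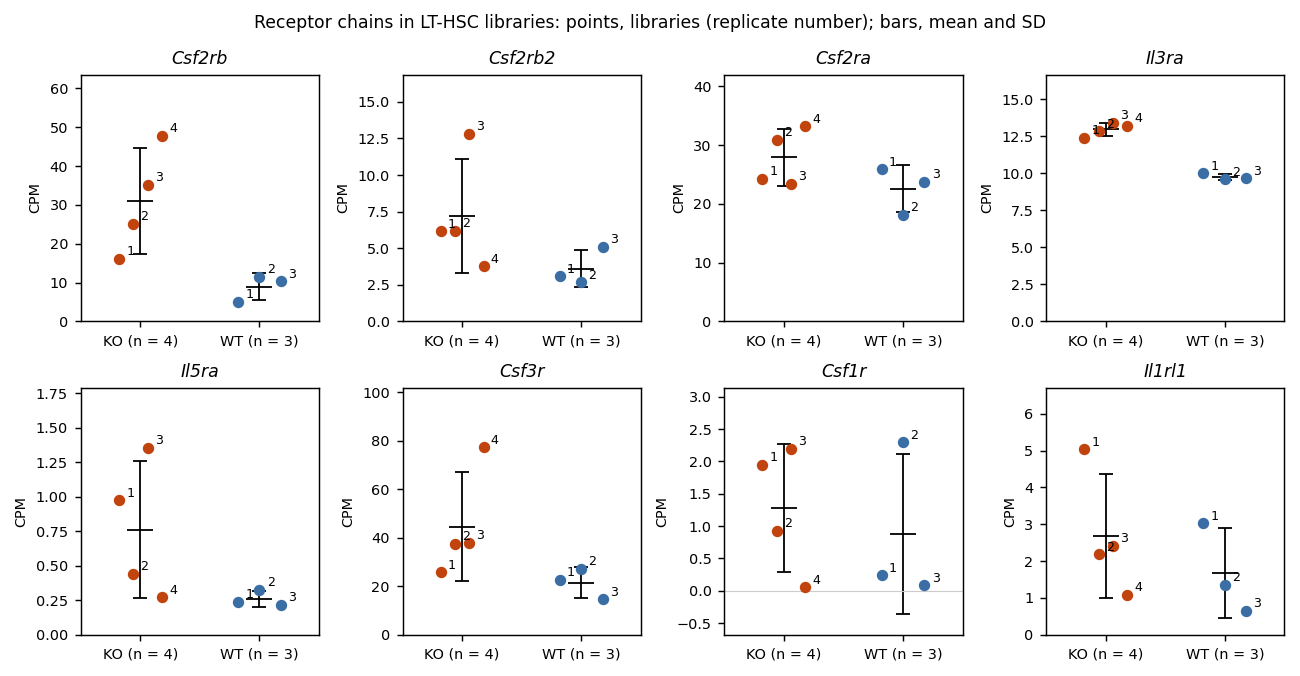
Level of each of the 8 receptor chains in every library, in CPM on linear axes that differ between panels; points are libraries with their replicate number, and bars are the group mean and SD of 4 KO and 3 WT libraries. The groups are apart for Csf2rb and Il3ra, and they overlap for the other 6 genes.

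The shared signalling chain, Csf2rb, had 16.1 CPM in KO1, 25.2 in KO2, 35.2 in KO3 and 47.8 in KO4, as against 4.99 CPM in WT1, 11.5 in WT2 and 10.3 in WT3. The lowest KO library was above the highest WT library, and the 4 KO libraries were themselves spread over a wide range. The means were 31.1 ± 13.6 CPM (SD, n = 4) and 8.96 ± 3.48 CPM (SD, n = 3), and the log2 difference was 1.80 (SE 0.40, 95% interval 0.91 to 2.69, edgeR adjusted p = 0.0480). The call rests on all but 1 of the libraries: the log2 difference stayed between 1.49 and 2.00 when each was left out, but the edgeR adjusted p was above the threshold of 0.05 without KO2 (0.0879), KO3 (0.116), KO4 (0.0598), WT1 (0.159), WT2 (0.0950) or WT3 (0.114), and 0.0164 without KO1. In the 5 libraries with Y-linked expression alone the log2 difference was 1.65 (edgeR adjusted p = 0.0952).

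Its copy Csf2rb2, the IL-3-specific beta chain, was less abundant. From KO1 to KO4 its level was 6.17, 6.17, 12.8 and 3.76 CPM, and from WT1 to WT3 it was 3.09, 2.67 and 5.09 CPM. The groups overlapped, since KO4, the library with the most Csf2rb, had less Csf2rb2 than WT3. The log2 difference was 1.00 (SE 0.45, edgeR adjusted p = 0.337). It was 0.56 without KO3, whose level was the highest.

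Because reads are divided between the copies, the fit was repeated with their sum. The summed gene rose by 1.61 on the log2 scale (SE 0.34, edgeR adjusted p = 0.0346). It passed without KO1 or KO4, and its edgeR adjusted p was 0.0671 without KO2, 0.0962 without KO3, 0.135 without WT1, 0.102 without WT2, 0.0710 without WT3 and 0.0599 in the 5 libraries with Y-linked expression. In TPM, Salmon's level per transcript length, Csf2rb made up 72.4, 82.0, 73.7 and 92.8% of the pair from KO1 to KO4, and 62.2, 81.4 and 67.4% from WT1 to WT3. The shares overlapped between the groups, and their difference of 9.91 percentage points did not pass (two-sided exact permutation test, p = 0.229).

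The alpha chains, which give each complex its cytokine, had estimated differences smaller than that of Csf2rb, and none of the 3 passed. Il3ra, the IL-3-binding chain at chr14:14346275-14356011, had 12.4, 12.8, 13.4 and 13.2 CPM from KO1 to KO4, whereas WT1 to WT3 had 9.99, 9.60 and 9.66 CPM. It had the tightest groups of all 8 chains, with no overlap between them and a 1.33-fold difference. Its log2 difference of 0.41 (SE 0.21) did not pass (edgeR adjusted p = 0.403). The 95% interval of the log2 difference was -0.05 to 0.87.

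Csf2ra, the GM-CSF-binding chain at chr19:61223957-61228429, was at 24.3 (KO1), 30.9 (KO2), 23.4 (KO3) and 33.2 CPM (KO4), compared with 25.9 (WT1), 18.1 (WT2) and 23.8 CPM (WT3). The groups overlapped, and the log2 difference was 0.31 (SE 0.21, 95% interval -0.17 to 0.78, edgeR adjusted p = 0.540). Il5ra, the IL-5-binding chain at chr6:106710357-106749037, had few reads, with 25.1, 11.7, 37.0 and 9.69 reads from KO1 to KO4 and 6.64, 7.38 and 5.42 reads from WT1 to WT3. In CPM it was 0.976, 0.444, 1.35 and 0.270 in KO and 0.238, 0.328 and 0.216 in WT, so that KO4 fell inside the WT range. Its log2 difference of 1.53 had an SE of 0.72 (edgeR adjusted p = 0.366), and too few of its reads remained for it to be tested under 4 of the 17 alternative settings.

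Csf3r, the G-CSF receptor of the neutrophil lineage (chr4:126024550-126044440), gave 25.8 CPM in KO1, 37.4 in KO2, 37.8 in KO3 and 77.3 in KO4. WT1, WT2 and WT3 gave 22.6, 27.1 and 14.7 CPM. KO4 was far above all other libraries, while KO1 lay within the WT range. The means were 44.6 ± 22.5 CPM (SD, n = 4) and 21.4 ± 6.29 CPM (SD, n = 3), and the log2 difference was 1.06 (SE 0.36, edgeR adjusted p = 0.197), which did not pass. Its value was 0.66 without KO4, and 0.45 in the 5 libraries with Y-linked expression, which leave out KO4 and WT3, the highest and the lowest library.

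Csf1r, the receptor for M-CSF that marks the monocyte and macrophage lineage, was low, and its groups overlapped. It had 1.95, 0.924, 2.19 and 0.0540 CPM from KO1 to KO4, with 0.238, 2.30 and 0.0862 CPM from WT1 to WT3. Its highest library was a WT library, and its lowest were KO4 and WT3, the pair without Y-linked expression. The log2 difference was 0.56 (SE 1.15, edgeR adjusted p = 0.846) and turned to -0.17 when Y-linked expression entered the fit, so no direction is given for this gene.

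Il1rl1, which mast cells, basophils and type 2 lymphoid cells use to sense IL-33 (chr1:40429570-40465415), had 5.03 CPM in KO1, 2.18 in KO2, 2.41 in KO3 and 1.08 in KO4, set against 3.02 in WT1, 1.36 in WT2 and 0.647 CPM in WT3. The groups overlapped, and KO1 and WT1 were the highest of each. The log2 difference was 0.66 (SE 0.64, edgeR adjusted p = 0.662), and it was 0.04 when the effective length of the transcripts entered the fit. Its annotated transcripts differ in length, and Salmon assigned most of the reads to the form of 5053 bases, with 238 reads in KO and 102 reads in WT in all.

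**Figure D2:**
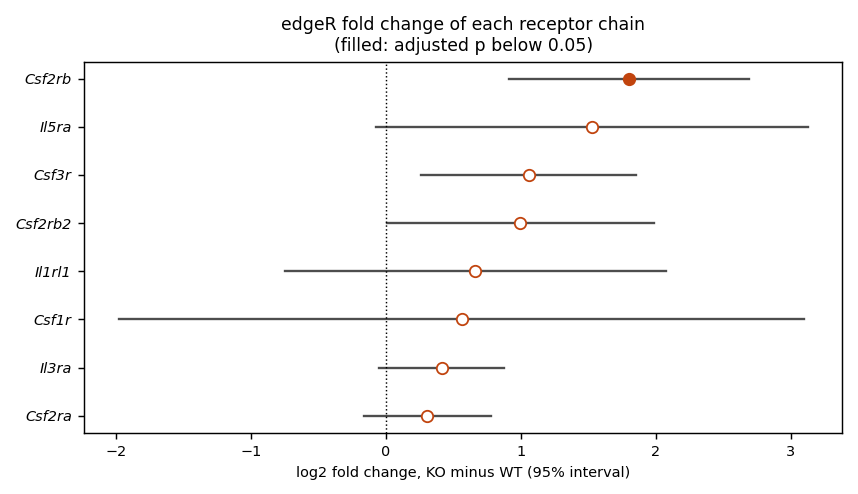
Log2 fold change of each receptor chain, KO minus WT, with its 95% interval from edgeR (4 KO and 3 WT libraries); the filled point has an adjusted p below 0.05. Csf2rb is the 1 filled point, at 1.80, and the interval of Csf1r reaches from -1.98 to 3.10.

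Levels can be compared between genes only per transcript length, in TPM. In WT the order of the mean TPM was Csf2ra at 18.5 ± 4.62, Il3ra at 12.7 ± 2.22, Csf3r at 7.15 ± 1.96, Csf2rb at 1.86 ± 0.675, Csf2rb2 at 0.767 ± 0.345, Il1rl1 at 0.565 ± 0.631, Csf1r at 0.165 ± 0.228 and Il5ra at 0.0655 ± 0.00728 (SD, n = 3). In KO it was Csf2ra at 25.4 ± 6.72, Il3ra at 17.7 ± 3.11, Csf3r at 17.2 ± 11.3, Csf2rb at 7.88 ± 4.06, Csf2rb2 at 1.70 ± 0.888, Il1rl1 at 0.663 ± 0.271, Csf1r at 0.294 ± 0.227 and Il5ra at 0.267 ± 0.201 (SD, n = 4). The order of the means was the same in both groups, but not every step of it was larger than the spread. In WT, Csf2ra and Il3ra overlapped, and so did Csf2rb and Csf2rb2, while Il3ra, Csf3r and Csf2rb lay apart from each other. In KO, Csf2rb reached from 3.63 to 13.2 TPM and overlapped with Csf3r, at 8.56 to 33.7 TPM, which in turn overlapped with Il3ra, at 15.3 to 22.3 TPM. Per length, the RNA of the GM-CSF and IL-3 alpha chains therefore exceeded that of their shared beta chain in every library of both groups.

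**Figure D3:**
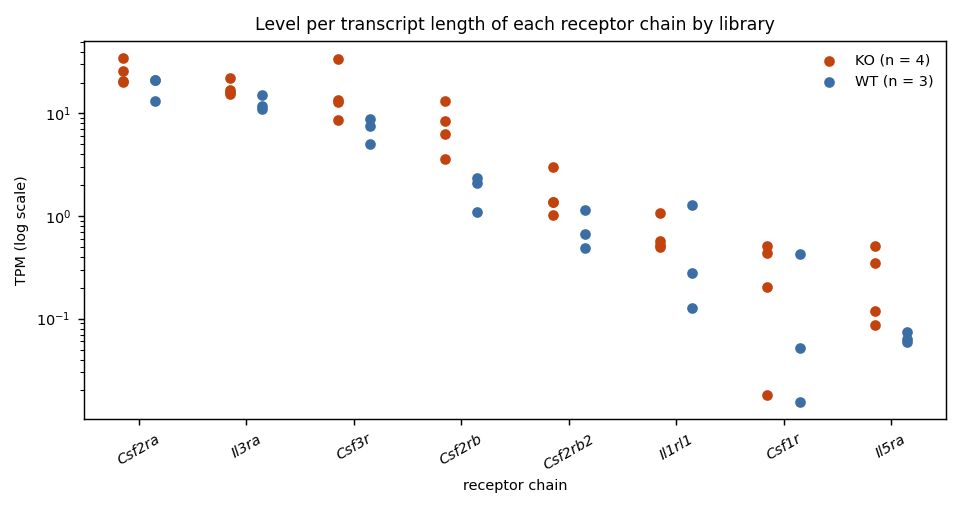
Level per transcript length of the 8 receptor chains, in TPM on a log axis, with 1 point for each library of KO (n = 4) and WT (n = 3). Csf2ra and Il3ra are the highest, and the KO points of Csf2rb, at 3.63 to 13.2 TPM, lie above its WT points, at 1.10 to 2.37 TPM.

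For Csf3r and Csf2rb the groups did not overlap in the estimated share of the longest annotated transcript, which has an upstream start. Csf3r-202 begins 2742 bases upstream of Csf3r-201, and Csf2rb-206 begins 238 bases upstream of Csf2rb-201. In both pairs the coding exons are the same, and the upstream form differs by its upstream noncoding exons and is longer by 321 bases for Csf3r and by 136 bases for Csf2rb. Csf3r-202 received 125, 153, 130 and 577 reads from KO1 to KO4 but 6.29, 0 and 6.21 reads from WT1 to WT3. Csf3r-201 received 536, 849, 902 and 2230 reads in KO and 613, 578 and 334 reads in WT, so it carried most of the reads of the gene in every library. Csf3r-204 and Csf2rb-205, shorter annotated forms, also begin upstream of Csf3r-201 and Csf2rb-201. They received 61.8 and 63.6 reads over the KO libraries and 1.09 and 3.06 reads over the WT libraries. The shares below are of Csf3r-202 and Csf2rb-206 and not of all upstream starts.

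As a share of the TPM of the gene, Csf3r-202 made up 17.5% in KO1, 13.3% in KO2, 11.4% in KO3 and 17.2% in KO4, but 0.711% in WT1, 0 in WT2 and 1.65% in WT3. Every KO library was above every WT library. The mean share was 14.8% ± 2.97 (SD, n = 4) against 0.788% ± 0.830 (SD, n = 3), and the two-sided exact permutation test gave p = 0.0571, the smallest that 4 against 3 libraries allow, or 0.114 after adjustment over the 4 share comparisons made. For scale, the longest transcript of a gene took a share without overlap between the groups, higher in KO, in 7.27% of the 9083 genes where this was examined. KO1, whose total Csf3r level lay within the WT range, had the highest share.

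Csf2rb-206 received 92.8, 55.9, 55.4 and 160 reads from KO1 to KO4 and 0 reads in each WT library. Its share of Csf2rb TPM was 21.7, 7.11, 5.46 and 8.62% in KO, and KO1, with the least Csf2rb of the KO group, had the largest share. The exact permutation test again gave the smallest p possible, 0.0571 (0.114 adjusted over the 4 comparisons). Against an assumed floor of 3 reads over the WT group, Csf2rb-206 was 76.7-fold higher in KO. That fold depends on the chosen floor and on how Salmon divided the reads, and it sets no lower bound. The share of Il3ra-203, the longest form of Il3ra, was 2.22% ± 0.982 in KO (SD, n = 4) and 2.16% ± 1.15 in WT (SD, n = 3), and overlapped (exact permutation p = 0.914).

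**Figure D4:**
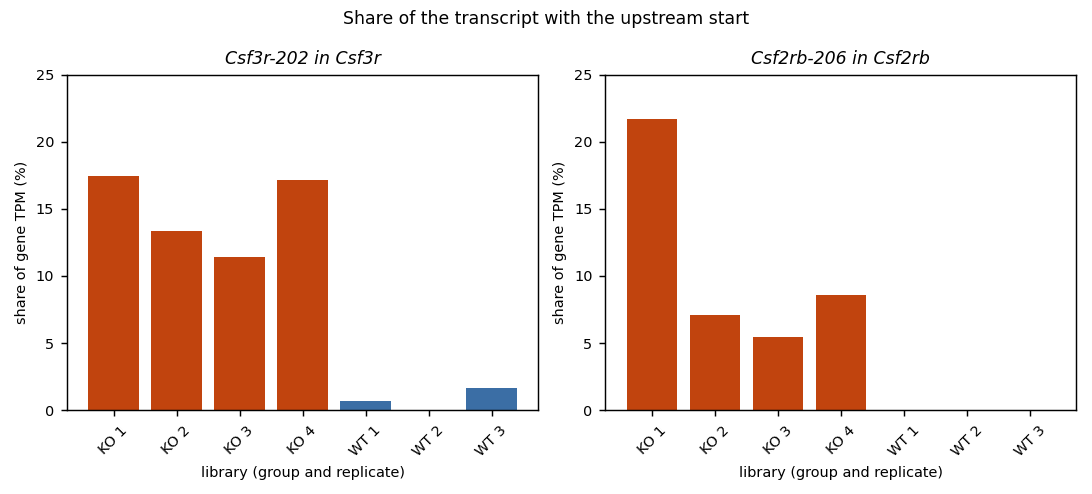
Share of the TPM of the gene taken by the longest transcript, which has an upstream start, Csf3r-202 in Csf3r and Csf2rb-206 in Csf2rb, in percent, with 1 bar for each library. The share is 11.4 to 17.5% in KO and at most 1.65% in WT for Csf3r-202, and 5.46 to 21.7% in KO and 0 in WT for Csf2rb-206.

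An edgeR fit over 40219 transcripts, added after these values had been seen, gave Csf2rb-206 an adjusted p of 0.0427, in a fit where 0.149% of transcripts rose. That call was lost without any 1 of the 7 libraries (edgeR adjusted p 0.0746 to 0.134). With 0 reads in each WT library, Csf2rb-206 met the filter on low counts through the KO libraries alone. Its p-value is therefore no support separate from the values that prompted the fit. Csf3r-202 had a log2 difference of 5.49 (SE 1.09) and did not pass (edgeR adjusted p = 0.107). For Csf3r-201 the log2 difference was 0.71 (SE 0.39, edgeR adjusted p = 0.518) and for Csf2rb-201 it was 1.53 (SE 0.49, edgeR adjusted p = 0.302). These estimates rest on the few fragments that reach the upstream exons, and the deposited files hold no measure of their uncertainty. Coverage of the 5′ ends in each library was not examined.

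The stretch before the upstream start of Csf3r is shown because Salmon assigned reads to the transcript that begins there mostly in KO libraries. RefSeq places a start of Csf3r at position 126024659 of chromosome 4, which is 109 bases downstream of the start of Csf3r-202. The bases of the RefSeq promoter window (GRCm38.p6) that precede Csf3r-202, chr4:126024409-126024549 on the plus strand, are printed with the ETS core letters GGAAG in capitals:
Csf3r upstream start: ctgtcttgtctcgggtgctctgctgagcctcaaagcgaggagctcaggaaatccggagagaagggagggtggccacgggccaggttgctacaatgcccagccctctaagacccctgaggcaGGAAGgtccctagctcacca
The whole window of 300 bases held GGAAG 5 times, counting both strands, and 71.41% of 32851 RefSeq promoter windows of that length hold it at least once. Of these 5 matches, 1 lies before the start of Csf3r-202, as printed, and the others lie after it. The longer PU.1 letters GAGGAAG, which overlap with GGAAG, were found 1 time, also after the start of Csf3r-202. They are held by 13.63% of all windows. The windows of Csf2ra and Csf2rb2 held the PU.1 letters 2 times each, and those of Il3ra, Il5ra and Il1rl1 held them 0 times. The letters searched for GATA factors (AGATAA), C/EBP (TTGCNNAA), AP-1 (TGANTCA) and STAT (TTCNNNGAA), on both strands, were found 0 times in the Csf3r window, against 11.18, 10.8, 7.81 and 8.3% of all windows with a match. A match of letters does not show that a factor binds. Promoter windows were found for 6 of the 8 genes.

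The ligands of these receptors were nearly absent from the sorted cells. Il3, Csf3 and Il33 had 0 reads in all 7 libraries, Csf2, Il5 and Il34 stayed too low to be tested, and Csf1 was the 1 ligand of 7 that was tested. Csf1, the M-CSF gene, was at 2.05 to 4.45 CPM in KO and 3.12 to 4.74 CPM in WT, with a log2 difference of -0.29 (SE 0.37, edgeR adjusted p = 0.745).

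Among 28 other haematopoietic cytokine receptors tested, 1 rose and 1 fell, against 0.599% and 1.66% of all genes, and their median log2 difference was 0.23. DESeq2 also called Flt3 and Il1r1 as higher, and limma voom also called Il1r1. Il18r1, the IL-18-binding chain and a relative of Il1rl1, rose by 2.29 on the log2 scale (SE 0.35, edgeR adjusted p = 0.00557), from 1.08 to 1.63 CPM in WT to 5.63 to 6.75 CPM in KO. It passed in all 17 alternative settings tried, and Csf2rb in 10 of its 17. Il11ra1, the alpha chain for IL-11, fell by 1.03 (SE 0.21, edgeR adjusted p = 0.0278), a call lost without KO1, KO2, KO3, WT1 or WT3 (0.0524, 0.0784, 0.0866, 0.122 and 0.0619). Il1rap, the partner chain of Il1rl1, had a log2 difference of -0.01 (SE 0.24, edgeR adjusted p = 0.992).

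Flt3, Kit, Epor and Il6ra, receptors of stem and progenitor cells, did not pass in edgeR. Flt3, a receptor of lymphoid-primed progenitors, was at 27.4 to 63.2 CPM against 14.5 to 25.2 CPM (log2 difference 1.15, SE 0.33, edgeR adjusted p = 0.124). It passed with DESeq2 (adjusted p = 0.0152) and did not with limma voom (adjusted p = 0.113). The log2 differences of Kit, the stem cell factor receptor, Epor and Il6ra were -0.29, 0.35 and -0.53 (edgeR adjusted p 0.552, 0.656 and 0.469).

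Downstream of the receptors, 27 signalling genes were tested, of which 0 rose and 1 fell in edgeR, with a median log2 difference of 0.05. Before adjustment 4 were higher and 4 lower at p below 0.05, while DESeq2 called 0 higher and 3 lower, and limma voom called 1 higher and 1 lower. Over all genes tested, 7.42% were higher and 7.21% lower before adjustment, DESeq2 called 2.40% higher and 3.50% lower, and limma voom called 1.83% higher and 2.99% lower. Sh2b3, which encodes the adaptor LNK that restrains JAK2 signalling from cytokine receptors, fell by 1.03 on the log2 scale (SE 0.18, edgeR adjusted p = 0.0155), from 30.6 to 35.5 CPM in WT to 14.5 to 19.4 CPM in KO. That call was lost without KO2 (edgeR adjusted p = 0.0677) or WT1 (0.0685). Jak2, the kinase bound to Csf2rb and Epor, was at 46.4 to 64.5 CPM in KO and 74.2 to 108 CPM in WT, and its log2 difference of -0.78 (SE 0.18) did not pass (edgeR adjusted p = 0.0581), although it did in 5 of the 17 alternative settings. Stat5a and Stat5b, the transcription factors that JAK2 activates, had log2 differences of 0.23 and -0.08 (edgeR adjusted p 0.601 and 0.868).

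Of 18 STAT5 targets and feedback genes, 0 passed in edgeR in either direction, with 4 above and 3 below at p under 0.05 before adjustment (7.42% and 7.21% of all genes). With DESeq2, 4 were higher (Osm, Pim1, Pim2 and Socs3) and 1 was lower (Ccnd2), against 2.40% and 3.50% of all genes. With limma voom, 2 were higher (Pim1 and Pim2) and 1 was lower (Ccnd2), against 1.83% and 2.99%. Pim1, a kinase gene induced by cytokine receptors, was at 100 to 196 CPM in KO and 78.8 to 86.4 CPM in WT, without overlap, and did not pass (log2 difference 0.87, SE 0.21, edgeR adjusted p = 0.0727). The feedback inhibitors Cish and Socs2 had log2 differences of 0.30 and 0.09 (edgeR adjusted p 0.671 and 0.886).

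Of 15 myeloid transcription factors tested, 0 passed in edgeR, and before adjustment 2 were higher at p below 0.05, against 7.42% of all genes. With DESeq2 and with limma voom, 1 was higher, Cebpa, against 2.40% and 1.83% of all genes. Cebpa had 9, 16 and 4 reads from WT1 to WT3 and met the filter on low counts only with the KO libraries. Spi1, which encodes PU.1, was at 85.8 to 142 CPM in KO and 75.2 to 95.7 CPM in WT (log2 difference 0.44, SE 0.19, edgeR adjusted p = 0.327). Cebpa, a factor of granulocyte and macrophage precursors, was at 1.25 to 3.84 CPM in KO and 0.172 to 0.750 CPM in WT, without overlap, and did not pass (log2 difference 2.44, SE 0.67, edgeR adjusted p = 0.104). Gata1 and Gata2, factors of the megakaryocyte, erythroid and mast cell branches, had log2 differences of 0.40 and 0.03 (edgeR adjusted p 0.515 and 0.945).

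Some markers of cells that carry these receptors also passed in edgeR. Of 8 tested for mast cells and basophils, 2 were higher and 0 lower. Of 17 tested for granulocytes and monocytes, 1 was higher and 2 were lower, and 0 of 2 eosinophil markers passed. Over all genes tested, 0.599% were higher and 1.66% lower. The 12 mast cell and basophil markers summed to 1261, 544, 1293 and 352 CPM from KO1 to KO4 but to 319, 32.8 and 23.7 CPM from WT1 to WT3. Mcpt8 and Prss34 held 79.6% of this sum over all libraries and did not pass (edgeR adjusted p 0.290 and 0.443). Without those genes, a choice made after their values were seen, the sums overlapped, at 59.6 to 277 CPM in KO and 22.5 to 68.9 CPM in WT. Fcer1a and Hdc rose, by 2.81 and 3.11 on the log2 scale (edgeR adjusted p 0.0328 and 0.0404), while the mature mast cell proteases Mcpt4, Tpsb2 and Tpsab1 had 0 reads in all 7 libraries. Both calls were lost without KO1, KO2, KO3, WT2 or WT3, with edgeR adjusted p of 0.0570, 0.0746, 0.0757, 0.141 and 0.119 for Fcer1a and 0.0701, 0.0848, 0.118, 0.0865 and 0.145 for Hdc, in that order. Hdc had 49, 4 and 14 reads from WT1 to WT3 and met the filter on low counts only with the KO libraries. The basophil protease gene Mcpt8 had 450, 152, 438 and 75.2 CPM from KO1 to KO4, with 84.9, 1.03 and 1.21 CPM from WT1 to WT3, and it passed with limma voom. Il4 and Gzmb had log2 differences of -0.15 and -0.14 (edgeR adjusted p 0.903 and 0.972). The libraries with the highest and lowest sum in KO were KO3 and KO4, while Csf2rb and Csf3r were both highest in KO4. Il5ra and Il1rl1, in contrast, were higher in KO1 and KO3 than in KO2 and KO4. The part of such cells in these results was not tested.

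The 8 eosinophil markers summed to 3.55 to 5.67 CPM in KO and 1.19 to 2.53 CPM in WT, with 0 reads for Prg3, Ear1 and Ear6 in all libraries and at most 0.0739 CPM of Epx. The 20 granulocyte and monocyte markers summed to 641 to 807 CPM in KO and 795 to 935 CPM in WT. Lyz2, a lysozyme gene, held 76.4% of that sum, at 462 to 574 CPM in KO and 651 to 796 CPM in WT. Without Lyz2, a choice made after its values were seen, the sums did not overlap, with 166, 224, 233 and 239 CPM from KO1 to KO4 and 139, 144 and 144 CPM from WT1 to WT3. In this sum, as for Csf2rb and Csf3r, KO1 was the lowest KO library and KO4 the highest, and the part of such cells in the receptor values was not tested. Prtn3 was the largest part of this sum in every library. It had 80.8, 147, 126 and 134 CPM from KO1 to KO4 and 64.7, 83.3 and 75.1 CPM from WT1 to WT3. The groups overlapped for Prtn3, which was highest in KO2 and did not pass (edgeR adjusted p = 0.135). Within that list Ms4a3, a gene of early granulocyte and monocyte precursors, rose by 1.70 on the log2 scale, whereas S100a9, of mature neutrophils, fell by 2.23, and F13a1, a gene shared with the megakaryocyte lineage, fell by 6.24 (edgeR adjusted p 0.0232, 0.0404 and 9.3e-06). DESeq2 called 4 higher (Fcgr3, Mpo, Ms4a3 and Prtn3) and 5 lower (F13a1, Lyz2, Ngp, S100a8 and S100a9). Of all genes tested it called 2.40% higher and 3.50% lower. With limma voom, 3 were higher (Mpo, Ms4a3 and Prtn3) and 5 lower (Camp, F13a1, Ngp, S100a8 and S100a9), against 1.83% and 2.99%. Mpo, the myeloperoxidase gene of granulocyte precursors, was at 21.8, 33.3, 28.1 and 74.8 CPM from KO1 to KO4 and at 3.56 to 13.6 CPM in WT, and its log2 difference of 2.48 (SE 0.56) did not pass in edgeR (adjusted p = 0.0509). Fcgr3 also did not overlap between the groups, with a log2 difference of 2.37 (SE 0.66, edgeR adjusted p = 0.108). S100a8, Ngp and Camp were lower without overlap, with log2 differences of -2.55, -3.72 and -2.83 (edgeR adjusted p 0.0666, 0.0922 and 0.171). Of the 17 markers tested, 3 were higher without overlap, against 8.23% of all genes, and 6 were lower. The share of all genes lower without overlap is not given here, so the count of 6 is not read as a result. The call of Ms4a3 was lost without KO1, KO2, KO3, WT1 or WT3 (edgeR adjusted p 0.0502, 0.0784, 0.0749, 0.0948 and 0.0932) and that of S100a9 without KO1, KO2, KO3, KO4, WT2 or WT3 (0.0925, 0.121, 0.0866, 0.0624, 0.0869 and 0.163). Satb1, the 1 of 9 lymphoid markers tested that passed in edgeR, rose by 1.65 (edgeR adjusted p = 0.0173), but not without KO1, KO3, WT2 or WT3 (0.0511, 0.0604, 0.0627 and 0.0712). Before adjustment 7 of the 9 were higher at p below 0.05, against 7.42% of all genes. DESeq2 called Dntt and Flt3 besides Satb1, and limma voom called Nkg7 besides Satb1, against 2.40% and 1.83% of all genes. Dntt had 1, 1 and 15 reads from WT1 to WT3 and met the filter on low counts only with the KO libraries.

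Of 14 megakaryocyte and platelet markers, 12 fell (12 with DESeq2 and 14 with limma voom), against 1.66% of all genes tested (3.50% and 2.99%). The markers summed to 1504 to 2565 CPM in KO and 6405 to 13560 CPM in WT. Their median log2 difference was -2.20, and the lowest p-values among them were those of Ppbp, Gp6 and Clec1b (log2 differences -7.17, -7.36 and -6.23, edgeR adjusted p 7.5e-06, 8.0e-06 and 6.9e-05). Mllt3, the 1 of 14 LT-HSC markers that passed in edgeR, fell by 1.15 (edgeR adjusted p = 0.0128), but not without KO2 or WT3 (0.0516 and 0.0534). DESeq2 also called Fgd5 and Procr as lower, and limma voom also called Procr. Before adjustment, 0 of the 14 LT-HSC markers were higher and 5 lower at p below 0.05, against 7.42% and 7.21% of all genes. The median log2 difference of these markers was -0.41. Of 11 erythroid and 4 stromal and endothelial markers tested, 0 passed in edgeR. Before adjustment, 3 erythroid markers were higher and 2 lower at p below 0.05, against 7.42% and 7.21% of all genes. Of the stromal and endothelial markers, 0 were higher and 1 was lower. With limma voom, 1 erythroid marker was higher (Tfrc) and 2 were lower (Hba-a1 and Hba-a2), against 1.83% and 2.99% of all genes. DESeq2 called 0 erythroid markers. Kdr, a stromal and endothelial marker, was called lower by limma voom and by DESeq2, against 2.99% and 3.50% of all genes. The erythroid sum was highest in KO1, at 1780 CPM, and in WT1, at 1150 CPM, as was Il1rl1 in each group. Most of that sum was Car1 in both libraries, at 1462 CPM in KO1 and 808 CPM in WT1. The part of such cells in the Il1rl1 values was not tested.

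The genes most like Csf2rb in profile were Col18a1, Mcts2 and Arid5a, by the mean absolute difference in log2 CPM over the 7 libraries after centring each gene on its mean (0.24, 0.25 and 0.28, over 13740 protein-coding genes compared). Arid5a, which encodes an RNA-binding protein of the ARID family, had 11.8, 21.3, 23.9 and 36.1 CPM from KO1 to KO4 with 6.59, 5.34 and 7.37 CPM from WT1 to WT3, and itself rose by 1.86 on the log2 scale (SE 0.35, edgeR adjusted p = 0.0220). That call was lost without KO2, KO3, WT1, WT2 or WT3 (edgeR adjusted p 0.0559, 0.0610, 0.0948, 0.0996 and 0.0669). Col18a1 and Mcts2 did not pass (edgeR adjusted p 0.155 and 0.297). The profiles were matched over the same KO and WT libraries, so the rise of Arid5a is no support separate from that of Csf2rb. No function or control shared with Csf2rb is implied by the likeness. Those most like Il1rl1 were Steap3, 1700020L24Rik and Tmem217 (0.30, 0.32 and 0.32), of which none passed.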

How the data were processed

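RNA of 7 sorted LT-HSC libraries was made into SMART-Seq v4 libraries and read as paired ends, per the labels. Per the submitters' processing notes, cutadapt and Salmon 0.11.2 were used with mm10; the sources used here do not name the transcript set. The deposited files hold, per transcript, estimated counts and TPM, made by the authors with Salmon. Of 112092 transcripts, 111787 matched GENCODE M21 (GRCm38) and were summed by gene; the other 305 held at most 0.123% of the reads of a library. Gene sums were rounded and tested with edgeR 4.0.16 (R 4.3.3; filterByExpr, TMM scaling, quasi-likelihood test, Benjamini-Hochberg adjustment, threshold 0.05), with no covariate. CPM used TMM-scaled library sizes. Transcript shares were compared by two-sided exact permutation over libraries, for genes with at least 50 reads in every library. Alternatives used DESeq2 1.42.0, limma 3.58.1 (voom), other filters, scalings and covariates, and fits without each library. The scripts were tested on simulated data.

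The 8 receptor chains and all lists were chosen with earlier results of these data known. Besides the chains, the genes named were B4galt1, tested ligands, 16 set receptors, signalling genes and transcription factors (1 of them is not reported here), up to 3 genes of smallest p per list among those that passed, and the 3 nearest profiles to Csf2rb and to Il1rl1; genes outside this rule were chosen after their values were seen. The fit in the 5 libraries with Y-linked expression (summed CPM of at least 100) and the transcript fit were added after seeing the data. Intervals of single estimates cover the spread between libraries and not the uncertainty of dividing reads among transcripts.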

Additional observations from a re-analysis of the deposited data

Results flagged for a closer look

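In 3 of 49 genes examined, 1 KO library lay apart from the other 3 by Dixon's criterion, which chance meets in about 1 of 20 groups. In each it was KO replicate 1. B4galt1, the deleted gene by label, was at 19.3 CPM there and at 14.6 to 14.9 CPM in the other KO libraries. Il1rap, the partner of Il1rl1, was at 9.95 CPM there and at 15.5 to 16.3 CPM in the others. Socs2, a feedback inhibitor of cytokine receptors, was at 35.4 CPM there and at 59.5 to 64.4 CPM in the others. None of the 8 receptor chains met the criterion.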

How the results depend on the processing

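Csf2rb and the sum of the beta chain genes were above 0 in all 17 alternatives and passed in 10 and 11 of them. Their log2 differences were 1.49 to 2.00 and 1.36 to 1.78 when each library was left out, and 1.65 and 1.63 in the 5 libraries with Y-linked expression. The count of receptor chains that rose was 0 to 1 when a library was left out and 0 in those 5 libraries, and 1 under the other alternatives. Csf1r turned to -0.17 with Y-linked expression in the fit. Over all genes, 88 rose and 244 fell; the counts were 352 and 514 with DESeq2, 269 and 439 with limma voom, 206 and 399 with Y-linked expression in the fit, and 30 to 130 and 157 to 279 when each library was left out. With transcript length in the fit, 213 rose. Csf2rb-206 had a fitted log2 difference of 9.002 to 9.472 without each library and 9.04 in the 5 libraries, and did not pass there. The share of Il3ra-203, with a difference of 0.07 percentage points, turned to -0.20 for shares of reads and was -0.60 to 0.46 when each library was left out. The cause of these changes was not tested, and fits that leave libraries out also hold fewer of them.

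Same-numbered KO and WT libraries did not deviate together (r = -0.05, -0.12 and -0.04), and the main fit did not pair them. These values cannot exclude a pairing that the labels do not state. With the replicate block in the fit, 58 genes rose, Csf2rb had a log2 difference of 1.53 and that of Gata2 was -0.015.

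Genes near 0 changed sign without passing in any setting. When each library was left out, the log2 difference was -0.47 to 0.037 for B4galt1, -0.026 to 0.62 for Epor, -0.079 to 0.12 for Il1rap, -0.16 to 0.030 for Stat5b, -0.077 to 0.23 for Socs2, -0.089 to 0.097 for Gata2 and -0.24 to 0.42 for Steap3. Il1rap was at 0.030 with limma voom, 0.087 with transcript length and 0.031 with Y-linked expression, and Gata2 was at -0.016 with limma voom. Steap3 was at -0.040 with Y-linked expression. In the 5 libraries Il1rap was at 0.012, Stat5b at 0.033, Gata2 at -0.11 and Csf1 at 0.028. Il5ra was not testable under 4 alternatives, and Mcts2 and Tmem217 under 1 each, because of the filter on low counts. Il5ra, Csf1r and Il1rl1 had few reads, at 83.5, 137 and 295 summed over the KO libraries and 19.4, 58.1 and 133 over the WT libraries.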
